A study of Mus musculus with 15 samples.

Results

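The 42 genes described here make up the BMP, activin and TGF-beta signalling system as it was followed in the mouse epididymis: ligands, a processing protease, secreted inhibitors, receptors, inhibitory Smads and the Id genes. They were chosen by name, and all 42 were found among the 41591 gene IDs of the deposited count table. The study compared whole epididymides of Plag1 knockout mice (KO, genotype Plag1 -/-), heterozygous mice (HET, Plag1 -/+) and wild-type mice (WT), all aged 7 weeks and all under the strain label Brown Swiss, with 5 RNA-seq libraries in each group. Plag1 encodes a zinc finger transcription factor. The labels do not describe the Plag1 allele, or say whether it is missing from every cell, and they give no treatment. Each library has its own number, taken here as an animal number, nothing in the labels speaks of pooled animals, and p-values measure the spread between these libraries. The tissue was teased apart and rinsed to remove sperm before RNA extraction, per the labels' protocols.

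Ligands of this family bind pairs of type I and type II receptor kinases, which phosphorylate receptor Smads that then enter the nucleus with Smad4. BMPs act mainly through Smad1, Smad5 and Smad9, and activins and TGF-beta mainly through Smad2 and Smad3, while secreted proteins such as chordin and follistatin hold ligands away from their receptors and Smad6 and Smad7 act inside the cell as feedback inhibitors. The Id genes are direct targets of BMP signals. In mice, Bmp4, Bmp7 and Bmp8a are known to be needed for the upkeep of the epididymal epithelium, and Inhba, the activin A subunit, for coiling of the embryonic duct.

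Libraries held 25285461 to 41957608 counted reads in KO, against 23617560 to 33804140 in HET and 20304440 to 27816792 in WT. The 8 markers of the epididymal epithelium were detected in every library, and their sum lay between 40719 and 61123 CPM (counts scaled to a common library size) in KO libraries, against 51729 and 62521 CPM at the extremes of HET and 50630 and 58874 CPM at those of WT. Plag1 had 8.17, 6.99, 7.90, 9.36 and 9.16 CPM in the KO libraries, against 11.9, 13.0, 12, 12.5 and 14.0 CPM in the WT libraries (log2 fold change -0.61 ± 0.10 (SE), edgeR adjusted p = 0.00493). Plag1 RNA was thus still counted in KO, with no overlap between KO and WT, and the table does not show which exons the reads covered. Libraries KO-738 and HET-693 stood apart in the share of counts in ribosomal RNA genes, 1.289% and 1.296%, against at most 0.509% in the other libraries.

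In the KO epididymis, 9 of the 39 members that could be tested differed from WT. The genes that rose were Bmper, Tgfbr2, Bmp6, Fstl1, Bmp1, Tgfbr3 and Chrdl1, which encode secreted BMP-binding proteins, a BMP ligand, a protease and both a receptor and a co-receptor for TGF-beta. Those that fell were Chrd, the BMP antagonist chordin, and Id1, a BMP target. The 9 calls were 23.1% of the members tested, and the same rule (edgeR quasi-likelihood test, Benjamini-Hochberg adjusted p below 0.05) called 6.00% of the 19388 genes tested. The share was 4.40% of all genes for higher and 1.60% for lower calls. The members had no shared direction: 19 of the 39 had a positive and 20 a negative log2 fold change, with a median of -0.02, beside -0.01 over all genes tested. Bmp8b, Nog and Grem1 had too few reads to be tested. In bulk tissue, fewer cells of a type and less RNA per cell cannot be told apart.

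**Figure D1:**
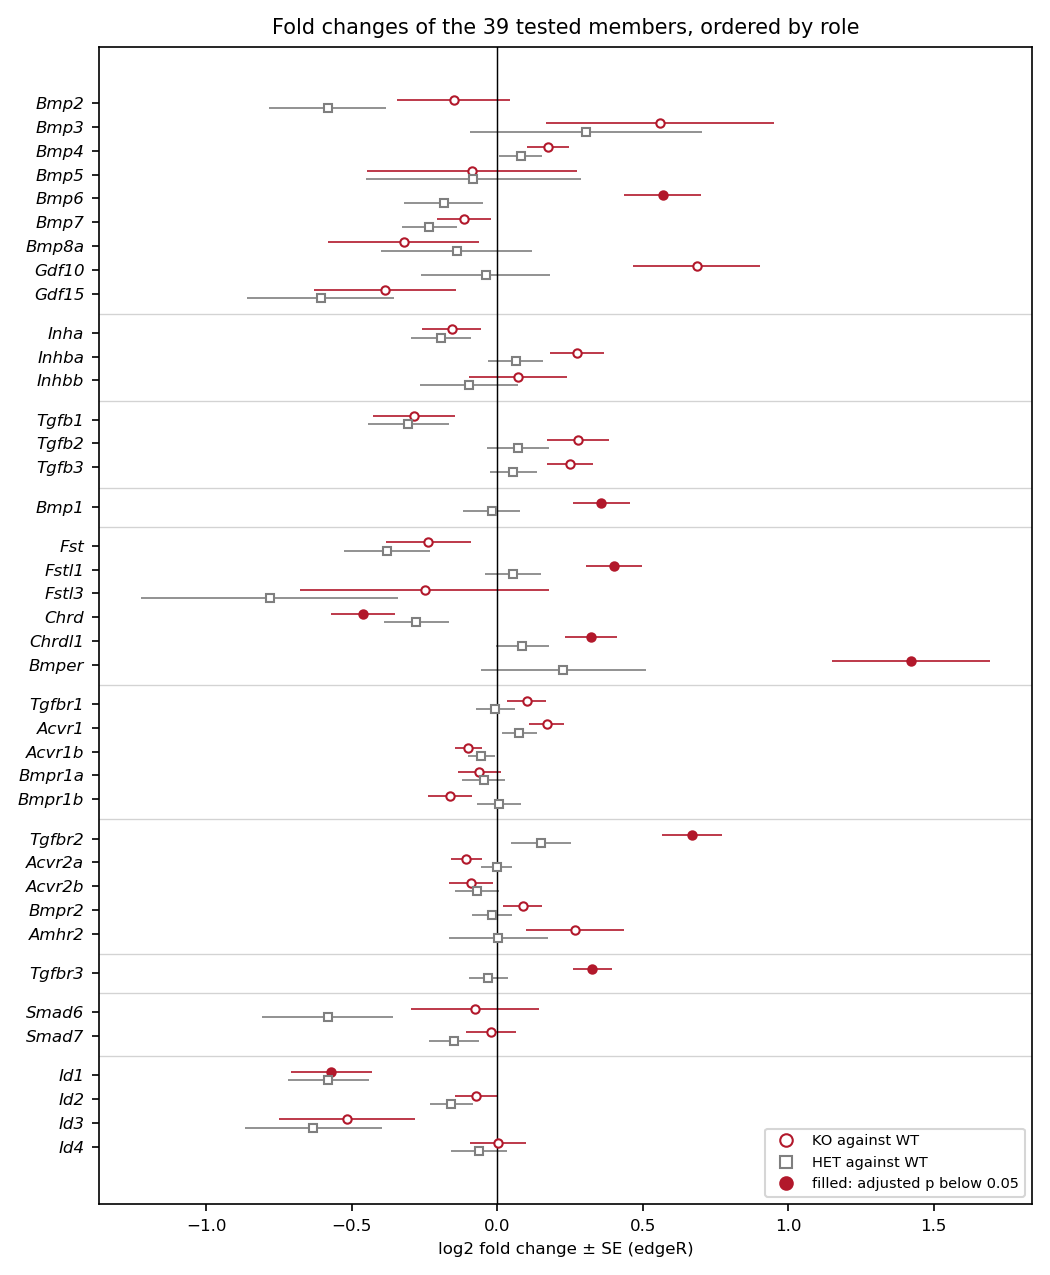
Log2 fold change with its standard error for the 39 tested members, ordered by role, in KO against WT (red circles) and HET against WT (grey squares); filled symbols mark an edgeR adjusted p below 0.05. The 9 filled symbols are all in KO against WT, with Bmper farthest to the right at 1.42 and Id1 lowest among the filled ones at -0.57; both comparisons use the same 5 WT libraries.

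Levels per length differed widely between the members. In WT the most abundant members, in RPKM (CPM per kilobase of exon), were Id2 at 28.8, the BMP type I receptor Bmpr1a at 28.5 and the TGF-beta type I receptor Tgfbr1 at 22.8. Fstl1 followed with 18.1 and Tgfb1 with 17.6 RPKM. At the low end, WT means were 0.102 RPKM for Bmp5, 0.0594 RPKM for Bmp8b and 0.0237 RPKM for Grem1, an antagonist of BMPs. Among the BMP ligands Bmp4 was the most abundant, with 7.75 RPKM in KO and 6.86 RPKM in WT, followed by Bmp7 with 3.68 RPKM in KO and 3.98 RPKM in WT. Tgfbr2, the receptor that rose, was a low one per length, with 4.26 RPKM in KO and 2.68 RPKM in WT, far under its partner Tgfbr1 at 24.5 RPKM in KO and 22.8 RPKM in WT.

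**Figure D2:**
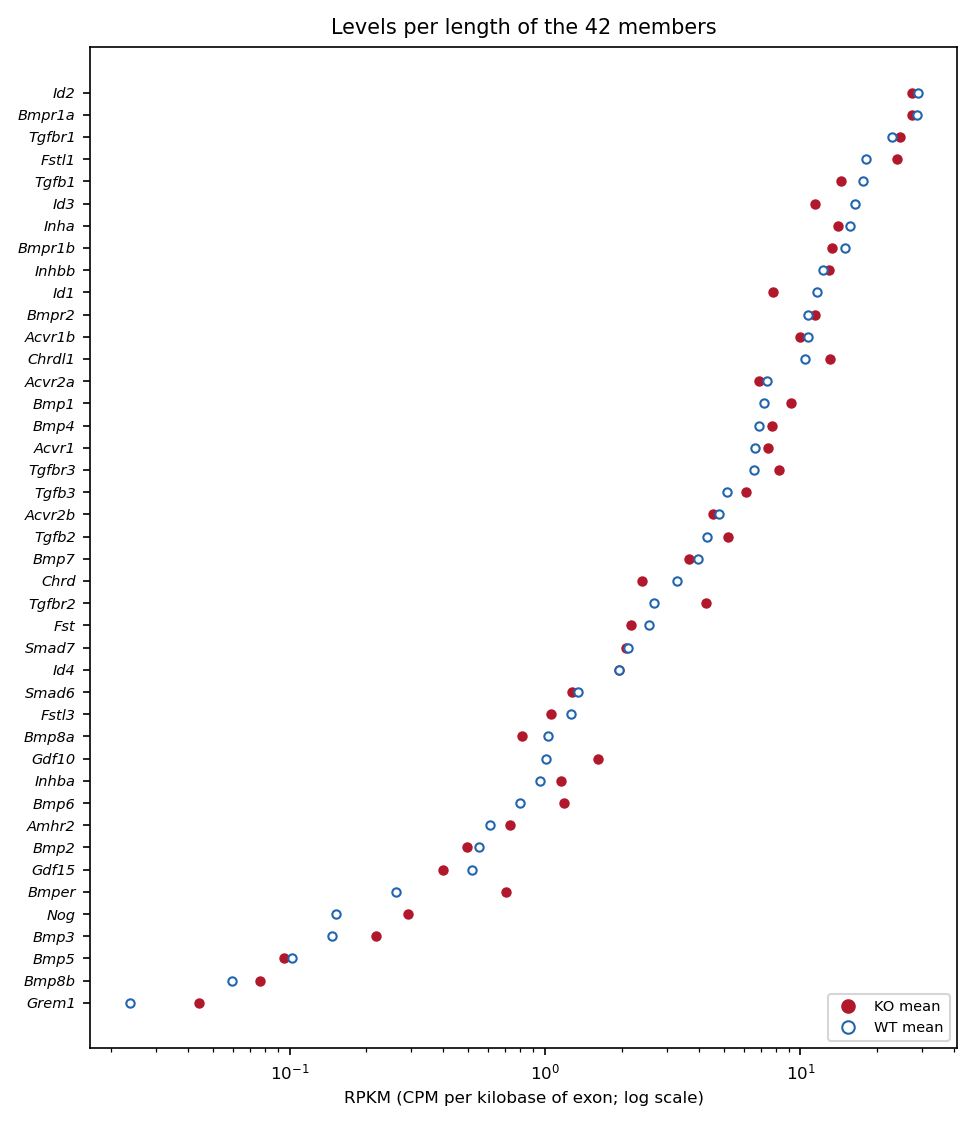
Mean level per length of each of the 42 members, in RPKM on a log scale, in KO (filled red) and WT (open blue), ordered by the WT mean. Id2, Bmpr1a and Tgfbr1 stand at the top at over 20 RPKM in both genotypes. The gap between the genotypes is widest for Bmper and also wide for Nog, Grem1, Gdf10 and Tgfbr2, of which Nog and Grem1 were not tested and Gdf10 did not pass.

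Among the BMP and GDF ligands, Bmp6, a ligand best known for the control of iron balance in the liver, was the 1 of 9 tested that passed. It had 4.37, 4.28, 4.34, 3.48 and 4.78 CPM in KO, against 3.49, 2.81, 2.64, 2.48 and 2.89 CPM in WT (log2 fold change 0.57 ± 0.13, adjusted p = 0.0244). Of the KO libraries 4 lay above every WT library, and KO-738 lay just under the highest WT library. The call was lost when KO-696, WT-719, WT-720 or WT-723 was left out (adjusted p 0.0512 to 0.0662). The annotated exons of Bmp6 share 224 bases with Txndc5 on the opposite strand, which did not pass the test (log2 fold change 0.00). Gdf10, also known as BMP3B, had 9.13, 10.1, 11.3, 4.89 and 6.78 CPM in KO, against 4.30, 5.52, 6.97, 4.68 and 4.77 CPM in WT, and did not pass (0.69 ± 0.22, adjusted p = 0.0716). Its KO libraries split, with 3 above every WT library and KO-738 and KO-739 within the WT range. The 3 high ones were KO-694, KO-695 and KO-696, the KO animals with the lowest numbers. Without KO-738 its adjusted p was 0.00867, and DESeq2 gave 0.028. Over all alternative fits the log2 fold change of Gdf10 was 0.16 to 0.83, with adjusted p-values of 0.0083 to 0.774.

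The other BMP ligands did not pass. Bmp4 had 14.2 to 17.4 CPM in KO and 13.0 to 16.0 CPM in WT (0.17 ± 0.07, adjusted p = 0.156), and Bmp7 had 10.8 to 15.3 CPM in KO and 13.7 to 15.7 CPM in WT (-0.11 ± 0.09, adjusted p = 0.502). Bmp2, Bmp3, Bmp5, Bmp8a and Gdf15, a stress-responsive member of the family, had log2 fold changes of -0.15, 0.56, -0.09, -0.32 and -0.38, each with an adjusted p above 0.3. Bmp3 was the most variable of these, with 0.908 to 2.94 CPM in KO and 0.731 to 1.27 CPM in WT. Bmp8a and Bmp8b are close copies of each other, so their separate counts are uncertain; Bmp8b had 0.162 to 0.313 CPM in KO and 0.0407 to 0.307 CPM in WT.

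Activin and inhibin subunits did not pass. Inhba, the subunit of activin A, had 8.17, 6.51, 7.87, 6.55 and 7.91 CPM in KO, against 6.34, 6.07, 5.57, 5.85 and 6.76 CPM in WT (0.27 ± 0.09, adjusted p = 0.0871). Of its KO libraries, 3 lay above the highest WT library. Inhbb, the subunit of activin B, was the more abundant per length, with 12.9 RPKM in KO and 12.3 RPKM in WT (0.07 ± 0.17, adjusted p = 0.841), and Inha, the alpha subunit that turns activin into inhibin, had 14.0 RPKM in KO and 15.6 RPKM in WT (-0.16 ± 0.10, adjusted p = 0.384).

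The 3 TGF-beta ligands did not pass and did not share a direction. Tgfb3 had 21.7, 21.4, 21.0, 17.1 and 22.8 CPM in KO, against 16.5, 17.3, 15.6, 19.3 and 18.8 CPM in WT (0.25 ± 0.08, adjusted p = 0.0715). All KO libraries but KO-738 lay above every WT library, and without KO-738, where 15% of all genes were called, the adjusted p was 0.00591. Over all alternative fits the log2 fold change of Tgfb3 was 0.17 to 0.32, with adjusted p-values of 0.00591 to 0.444. Tgfb2 had 22.5 to 36.6 CPM in KO and 20.7 to 24.3 CPM in WT (0.28 ± 0.11, adjusted p = 0.123). Tgfb1, the most abundant of the 3 per length, was on the other side of 0, with 29.5, 38.4, 35.2, 29.9 and 23.9 CPM in KO, against 49.0, 38.6, 37.1, 38.7 and 28.2 CPM in WT (-0.29 ± 0.14, adjusted p = 0.23).

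Bmp1 is, despite its name, a metalloprotease that trims procollagens and cuts chordin. It had 34.5, 37.6, 36.2, 28.8 and 32.6 CPM in KO, against 27.2, 22.4, 31.3, 27.2 and 24.4 CPM in WT (0.36 ± 0.10, adjusted p = 0.0419). KO-738 was again the lowest KO library and lay inside the WT range, while the other 4 lay above it. This was a call near the threshold, which held in 4 of the 15 fits that each left out a library. The adjusted p was 0.0538 to 0.121 without any of WT-709, WT-719, WT-723, WT-726, HET-715, HET-718, HET-735, KO-694, KO-695, KO-696 or KO-739.

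The secreted inhibitors and binding proteins held the most calls, 4 of 6 tested, in both directions. Bmper, a secreted protein that binds BMPs and can either block or help them, had the largest fold change of all members. It had 2.44, 2.99, 2.66, 1.22 and 4.03 CPM in KO, against 0.691, 0.953, 1.25, 1.17 and 0.896 CPM in WT (1.42 ± 0.27, adjusted p = 0.0092), or 2.68-fold. The KO libraries other than KO-738 lay well above the WT range, and KO-738 lay within it. Counts behind these values were 18 to 135 reads per library. The call held in all 15 fits with a library left out, and with the animal number range in the fit (edgeR adjusted p = 0.0474). It was lost among animals numbered 700 and above (0.161) and without both KO-695 and KO-739 (0.0759).

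Fstl1, a follistatin-related glycoprotein made by connective tissue cells that can block BMP signals, had 82.9, 81.8, 89.6, 77.7 and 121 CPM in KO, against 63.2, 67.8, 73.9, 65.9 and 72.1 CPM in WT (0.40 ± 0.10, adjusted p = 0.028). KO and WT libraries did not overlap, and KO-739 stood well above the other KO libraries. Without KO-696, WT-709, WT-719 or WT-723 the adjusted p was 0.0569 to 0.0808. Chrdl1, a chordin-like antagonist, had 89.7, 77.9, 94.9, 71.7 and 106 CPM in KO, against 64.3, 75.4, 69.8, 70.0 and 73.1 CPM in WT (0.32 ± 0.09, adjusted p = 0.0477). KO-738 lay within the WT range, and the call, the closest of the 9 to the threshold, held only without KO-695 or KO-738 among the 15 fits that left out a library; in the other 13 the adjusted p was 0.0503 to 0.121.

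Chrd moved the other way. It had 9.56, 8.55, 8.54, 11.6 and 8.99 CPM in KO, against 15.1, 11.0, 14.9, 13.0 and 10.9 CPM in WT (-0.46 ± 0.11, adjusted p = 0.0278). All KO libraries but KO-738 lay below every WT library, and WT-719 and WT-726 were the low WT libraries. Without KO-694, KO-695, KO-696, WT-709, WT-720 or WT-723 the adjusted p was 0.0543 to 0.0816. The exons of Chrd share 154 bases with Thpo on the opposite strand, which had a log2 fold change of -0.39 ± 0.19 (adjusted p = 0.226), and the strand setting of the read counting is not given in the sources used here.

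The remaining inhibitors did not pass or were not tested. Fst, follistatin, which binds activins, had 4.67 to 7.61 CPM in KO and 5.64 to 7.76 CPM in WT (-0.24 ± 0.15, adjusted p = 0.354). Fstl3, a second follistatin-type inhibitor whose exons share 1157 bases with Prss57 on the opposite strand, had 0.627 to 4.95 CPM in KO and 1.10 to 3.49 CPM in WT (-0.25 ± 0.43, adjusted p = 0.773). Nog, the BMP antagonist noggin, was counted at 0.464, 0.783, 0.485, 0.282 and 0.448 CPM in KO, against 0.307, 0.301, 0.321, 0.110 and 0.244 CPM in WT. Of these, 4 KO values lay above every WT value, on 3 to 28 reads per library over all groups. Grem1 had 0.140 to 0.254 CPM in KO and 0.0365 to 0.150 CPM in WT.

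Among the receptors, Tgfbr2, the type II receptor that binds TGF-beta, gave the smallest p-value of all members. It had 32.7, 33.4, 37.0, 26.2 and 45.2 CPM in KO, against 21.5, 23.0, 23.0, 20.4 and 21.9 CPM in WT (0.67 ± 0.10, adjusted p = 0.00378), or 1.59-fold. Every KO library lay above every WT library, with KO-738 the closest to WT and KO-739 the farthest. The call held in all 15 fits with a library left out, and was lost among animals numbered 700 and above (edgeR adjusted p = 0.13). Tgfbr3, or betaglycan, a co-receptor that presents TGF-beta to Tgfbr2 and also binds inhibin, had 51.3, 48.4, 53.1, 42 and 56.9 CPM in KO, against 39.1, 39.3, 41.2, 39.3 and 41.8 CPM in WT (0.33 ± 0.07, adjusted p = 0.0131). The groups did not overlap here either; of the 15 fits that left out a library, the 1 without KO-696 lost the call, at an adjusted p of 0.0518. It was also lost with the animal number range in the fit (0.0797), among animals numbered 700 and above (0.196) and without both KO-695 and KO-739 (0.0784). Its exons share 297 bases with Gm43422 on the same strand.

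The other receptors did not pass. Among the 5 type I receptors, Acvr1, a receptor for BMPs, had 26.1, 29.8, 26.7, 24.6 and 28.4 CPM in KO, against 22.0, 26.0, 24.5, 23.1 and 25.0 CPM in WT (0.17 ± 0.06, adjusted p = 0.103). Without KO-738, where 15% of all genes were called, its adjusted p was 0.0273. Over all alternative fits its log2 fold change was 0.08 to 0.21, with adjusted p-values of 0.0273 to 0.481. Tgfbr1, Acvr1b, Bmpr1a and Bmpr1b had log2 fold changes of 0.10, -0.10, -0.06 and -0.16. Of these, Bmpr1b, a BMP type I receptor, had 69.5 to 90.3 CPM in KO and 79.2 to 95.9 CPM in WT (adjusted p = 0.206, and 0.0404 without KO-738). Over all alternative fits the log2 fold change of Bmpr1b was -0.22 to -0.02, with adjusted p-values of 0.0404 to 0.937. Among the type II receptors, Acvr2a, Acvr2b and Bmpr2 had log2 fold changes of -0.11, -0.09 and 0.09, and Amhr2, the receptor of anti-Müllerian hormone, 0.27, with adjusted p-values of 0.244, 0.511, 0.47 and 0.362. Apart from Amhr2, the standard errors of these receptors were 0.05 to 0.08.

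Promoters are shown for Tgfbr2, which had the smallest p-value, Bmper, which had the largest rise, and Chrd, the called member whose promoter held both a Smad-type and a PLAG1-type motif. Each is the 250 bases before the start site used for the RefSeq promoter in build GRCm38.p6, written 5′ to 3′ on the gene's strand, and capitals mark a motif. For Tgfbr2 and Bmper this site is the annotated gene start. The annotated Chrd gene starts farther upstream, at chr16:20731425, so its window lies inside the gene.
Tgfbr2, chr9:116175364-116175613, minus strand: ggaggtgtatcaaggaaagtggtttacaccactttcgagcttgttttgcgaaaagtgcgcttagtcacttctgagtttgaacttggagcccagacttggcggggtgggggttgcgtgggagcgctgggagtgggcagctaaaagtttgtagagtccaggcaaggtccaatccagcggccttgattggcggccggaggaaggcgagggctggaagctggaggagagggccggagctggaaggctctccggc
Bmper, chr9:23222826-23223075, plus strand: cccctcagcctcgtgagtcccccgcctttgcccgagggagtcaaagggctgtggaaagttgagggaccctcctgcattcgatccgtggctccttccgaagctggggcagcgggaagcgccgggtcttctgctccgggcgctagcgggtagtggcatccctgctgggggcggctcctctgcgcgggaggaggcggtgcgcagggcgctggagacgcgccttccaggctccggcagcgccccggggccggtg
Chrd, chr16:20732877-20733126, plus strand: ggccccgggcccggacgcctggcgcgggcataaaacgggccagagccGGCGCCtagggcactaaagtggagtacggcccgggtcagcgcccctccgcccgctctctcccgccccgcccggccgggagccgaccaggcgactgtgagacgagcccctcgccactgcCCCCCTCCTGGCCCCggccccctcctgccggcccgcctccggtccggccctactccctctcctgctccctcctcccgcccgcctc

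Of the 42 members, 31 had a promoter in the RefSeq table. On both strands, GTCTAGAC, the Smad box, was in 0 of the 31 and in 0.174% of all 27025 promoters. GGCGCC, a GC-rich motif bound by BMP-activated Smads, was in 7 of 31 (Bmpr1a, Bmpr2, Chrd, Grem1, Id2, Id4 and Tgfbr1) and in 9.54% of all promoters. A PLAG1-type motif, GGGGCNNNNNNNGGG, was in 8 of 31 (Amhr2, Bmp4, Bmpr1a, Chrd, Fstl3, Grem1, Smad6 and Tgfb1) and in 7.27% of all promoters. In the Chrd window GGCGCC starts 203 bases and the PLAG1-type match, on the opposite strand, 85 bases before the start site used, without overlap. GC content was 58.4% for the Tgfbr2 window, 71.6% for Bmper and 78.0% for Chrd. Among the members called in KO against WT that had a promoter in the table, Chrd was the 1 with any of these motifs in the exact spelling given. Other spellings or spacings were not searched, so an unmarked window, such as that of Bmper or Tgfbr2, may still hold a variant. A match of letters is a description of the window only.

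The inhibitory Smads did not pass. Smad6, which mainly dampens BMP signals, had 2.72 to 5.17 CPM in KO and 2.81 to 5.99 CPM in WT (-0.08 ± 0.22, adjusted p = 0.871), and Smad7, which dampens TGF-beta and BMP signals, had 8.39 to 9.84 CPM in KO and 7.58 to 10.6 CPM in WT (-0.02 ± 0.09, adjusted p = 0.907).

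Of the 4 Id genes, whose proteins block basic helix-loop-helix factors from binding DNA, Id1 fell. It had 9.79, 9.31, 8.04, 10.5 and 7.64 CPM in KO, against 17.3, 10.7, 15.1, 14.4 and 9.66 CPM in WT (-0.57 ± 0.14, adjusted p = 0.029). The WT libraries were spread: WT-719 and WT-726 lay close to the KO libraries, and WT-709, WT-720 and WT-723 far above them, so KO and WT overlapped. Without KO-695, KO-696, KO-739, WT-709, WT-720 or WT-723 the adjusted p was 0.0515 to 0.0826. Id3 had 16.8, 18.9, 13.5, 15.8 and 7.97 CPM in KO, against 24.4, 16.9, 30.0, 18.6 and 14.3 CPM in WT (-0.52 ± 0.23, adjusted p = 0.196), with the same pair of low WT libraries. Id2, the most abundant of the 4, had 60.3 to 73.0 CPM in KO and 61.4 to 79.6 CPM in WT (-0.07 ± 0.07, adjusted p = 0.602). Id4 had 6.77 to 8.27 CPM in KO and 6.69 to 8.12 CPM in WT (0.00 ± 0.10, adjusted p = 0.988).

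The order of the libraries within a genotype recurred over the members. KO-738 was the KO library nearest to WT in 7 of the 7 members that rose and 2 of the 2 that fell, and KO-739 was the farthest in 6 of the 7 that rose. Without KO-738 the count of members called was 15, where 15% of all genes were called, and without KO-696 it was 2 (Bmper and Tgfbr2), where 1.63% of all genes were called. With KO-695 and KO-739 both left out it was 1 (Tgfbr2), and 0.717% of all genes. The counts of members thus moved with those of all genes. Among WT libraries, WT-719 and WT-726 were the pair with the lowest values in 12 of 39 members, among them Chrd, Id1, Id3, Bmp1 and Smad6, and the pair with the highest values in 9 of 39, among them Bmpr1a, Tgfbr1 and Acvr1. All WT animals have numbers of 700 or above, while KO-694, KO-695, KO-696, HET-692 and HET-693 lie below. With that number range as a term in the fit, 2 members were called, Bmper (adjusted p = 0.0474) and Tgfbr2 (adjusted p = 0.0252), and 0.913% of all genes. Among animals numbered 700 and above, with 2 KO libraries left, edgeR called 0 of all 19801 genes tested and so no member. At an unadjusted p below 0.05 there were 12 members. The share of all genes at that p was not taken for this fit, and it was 23.6% in the main fit. The 9 log2 fold changes kept their side of 0, which is no separate test, since the 9 were called in a fit that held these same libraries.

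**Figure D3:**
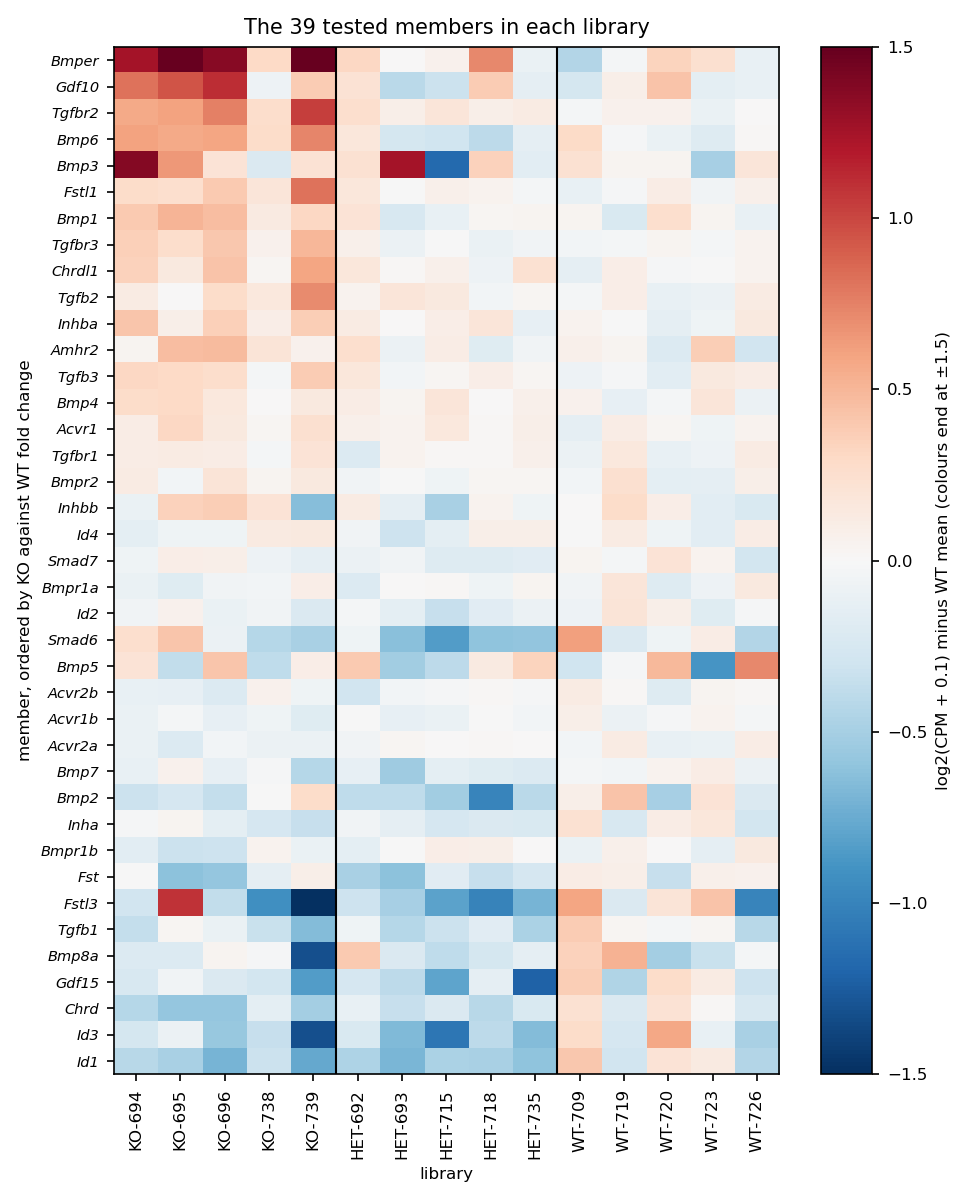
Each of the 39 tested members (rows, ordered by the KO against WT fold change) in each of the 15 libraries (columns, KO, HET, then WT), coloured by log2(CPM + 0.1) minus the WT mean, with colours ending at ±1.5. The upper rows are red in 4 KO libraries and paler in KO-738, and the lowest row, Id1, is blue in all KO and HET libraries and mixed in WT.

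Markers of some other cell types moved with these members, where 4.40% of all genes were called higher and 1.60% lower. Of the 10 fibroblast markers 7 were higher in KO than in WT, and their summed level was 1322 to 2524 CPM in KO and 1103 to 1455 CPM in WT. The endothelial markers were higher in 6 of 8 (192 to 264 CPM in KO, 127 to 154 CPM in WT) and the macrophage markers in 6 of 9 (109 to 189 CPM in KO, 87.7 to 109 CPM in WT). No marker of these 3 lists was at 0 in any library. KO-738, the KO library nearest to WT for the called members, had the lowest sums of the KO libraries for these 3 lists, with its fibroblast sum of 1322 CPM inside the WT range. Germ cell markers were higher in 3 of 8 (24.0 to 152 CPM in KO, 22.6 to 56.7 CPM in WT) and mesothelial markers in 2 of 4 (4.82 to 21.2 CPM in KO, 2.85 to 5.52 CPM in WT), and KO-738 had the lowest KO sum of both lists too. Markers of testis somatic cells were higher in 2 of the 5 tested, though the list summed to 40.2 to 70.6 CPM in KO and 67.7 to 75.4 CPM in WT. Smooth muscle markers, with 0 of 7 called, summed to 2875 to 3006 CPM in KO and 2649 to 3207 CPM in WT. None of the basal cell, nerve and glia or blood cell markers tested was called, and 1 of 4 clear cell markers was lower. Skeletal muscle markers summed to 4183 CPM in KO-739, against at most 75.5 CPM in WT libraries, and fat cell markers to 198 CPM in KO-695, 75.8 CPM in KO-738 and 48.3 CPM in KO-694, against at most 39.8 CPM in WT libraries. Their part in the members' changes was not tested.

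Set against the fibroblast sum, the members that rose separated by their medians, while KO and WT ranges overlapped for every one of them. Per 1000 CPM of fibroblast markers, Bmper had a median of 1.31 CPM in KO (0.924 to 1.65) and 0.813 CPM in WT (0.604 to 0.969), a ratio of 1.61. Tgfbr2 had 17.6 CPM in KO and 17.7 CPM in WT, a ratio of 0.99, and Bmp6 a ratio of 0.95. For Bmp1, Fstl1, Chrdl1 and Tgfbr3 the ratios were 0.82, 0.82, 0.75 and 0.72. Per 1000 CPM of endothelial markers the ratios were 1.86 for Bmper, 1.12 for Tgfbr2, 1.03 for Bmp6 and 0.84 to 0.94 for Bmp1, Tgfbr3, Fstl1 and Chrdl1. Ranges against the endothelial sum overlapped for all but Tgfbr3, at 216 to 247 CPM in KO and 253 to 309 CPM in WT. These ratios are descriptions, since 7 of the 10 fibroblast and 6 of the 8 endothelial markers were themselves higher in KO.

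**Figure D4:**
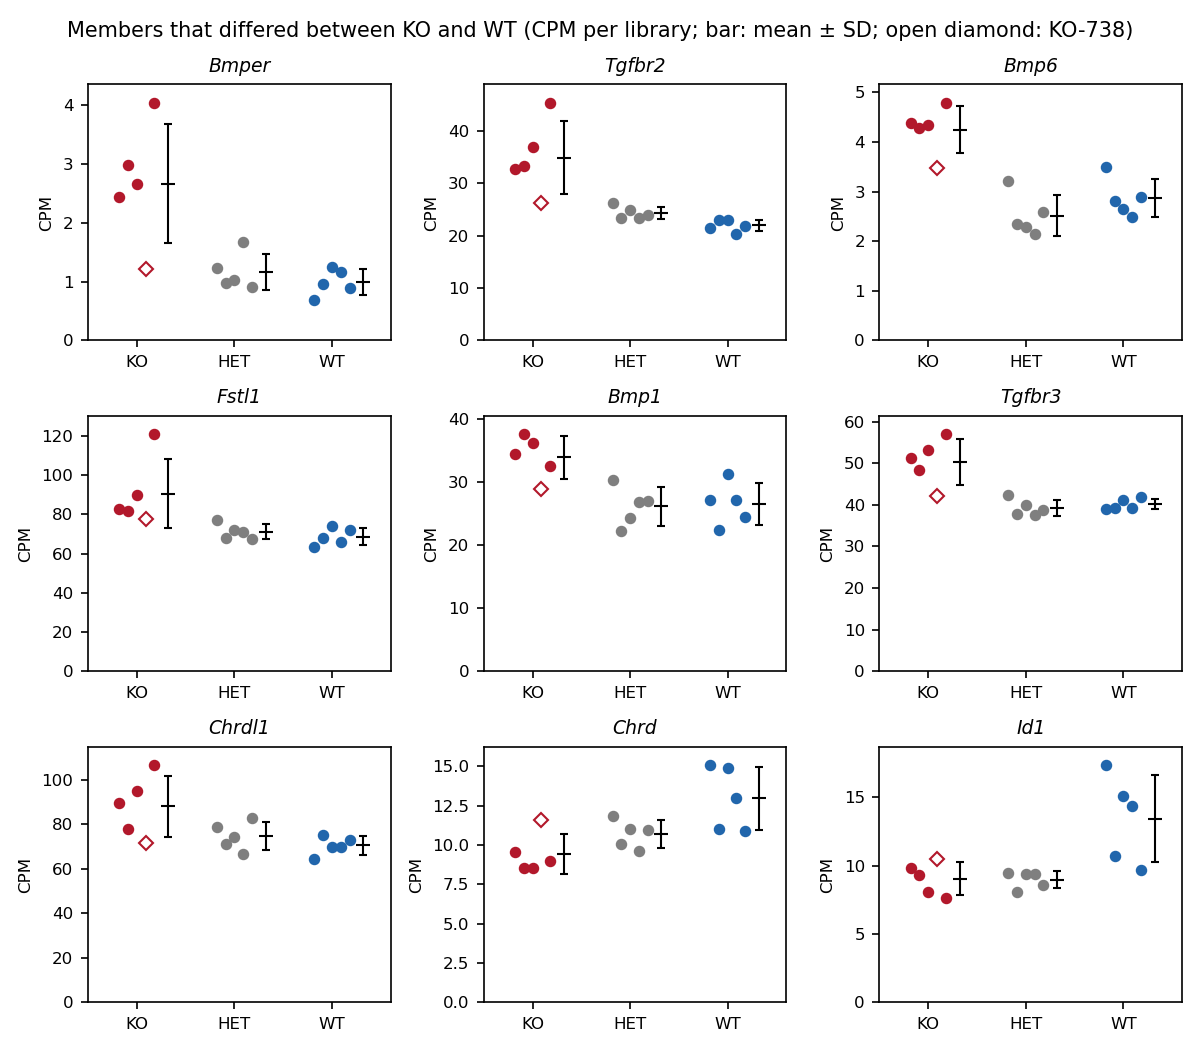
CPM in each library of the 9 members that differed between KO and WT (KO red, HET grey, WT blue, each panel from 0), with the mean ± SD beside each group; the open diamond is KO-738. KO libraries lie above WT in all 5 libraries for Fstl1, Tgfbr2 and Tgfbr3, and for Id1 both KO and HET lie low, at 7.64 to 10.5 and 8.10 to 9.47 CPM, beside a wide WT group at 9.66 to 17.3 CPM. A lack of overlap is given gene by gene, and the share of all tested genes without overlap is not reported here.

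In HET against WT no member passed the test, by edgeR, DESeq2 or limma voom, and edgeR called 0% of all 19388 genes. The smallest adjusted p over all genes was 0.981. At an unadjusted p below 0.05 there were 10 members (25.6% of 39), all 10 lower in HET, where 4.40% of all genes had such a p and 2.20% of all genes were lower. The 10 were Bmp2, Bmp7, Gdf15, Tgfb1, Fst, Chrd, Smad6, Id1, Id2 and Id3, and none of them survives the adjustment over all genes. Over the 39 members, 12 log2 fold changes were positive and 27 negative, with a median of -0.06, beside 0.01 over all genes.

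Id1 gave the smallest p of the members in HET against WT. It had 9.47, 8.10, 9.37, 9.35 and 8.60 CPM in HET, and every one of these lay below the lowest WT library at 9.66 CPM (-0.58 ± 0.14, unadjusted p = 0.000739, adjusted p = 0.981). The HET libraries were close together, with an SD of 0.602 CPM around 8.98 CPM, beside 3.18 CPM around 13.4 CPM in WT. Id3 had 17.1, 12.6, 9.44, 15.2 and 12.8 CPM in HET, against 14.3 to 30.0 CPM in WT (-0.63 ± 0.24, adjusted p = 0.981). Smad6 had 3.68, 2.46, 2.11, 2.51 and 2.54 CPM in HET, against 2.81 to 5.99 CPM in WT (-0.58 ± 0.23), and Bmp2 had 1.44, 1.45, 1.30, 0.910 and 1.42 CPM in HET, against 1.32 to 2.61 CPM in WT (-0.58 ± 0.20). All but 1 HET library lay below the WT range for Smad6. HET and KO are both set against the same 5 WT libraries, so a shared side of 0 for Id1, Id3, Tgfb1 and Chrd is not independent between the comparisons.

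**Figure D5:**
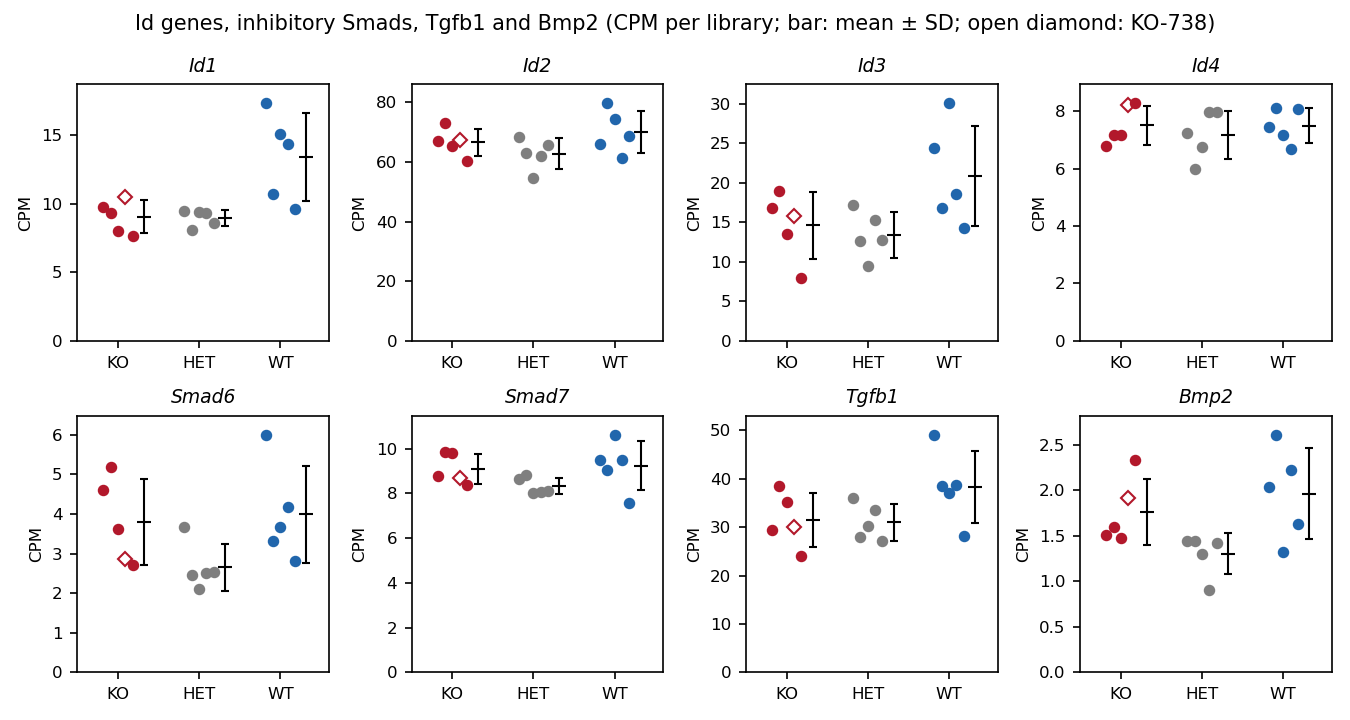
CPM in each library of the 4 Id genes, both inhibitory Smads, Tgfb1 and Bmp2 (KO red, HET grey, WT blue, panels from 0), with the mean ± SD beside each group; the open diamond is KO-738. For Id1 the 5 HET libraries lie at 8.10 to 9.47 CPM, under all WT libraries, and the WT libraries spread over 9.66 to 17.3 CPM; Id4 and Smad7 show no such gap.

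KO against HET gave 4 calls of 39 (10.3%), all higher in KO, where the rule called 1.96% of all genes, 1.61% as higher and 0.351% as lower. They were Bmper with 2.67 ± 1.01 CPM in KO and 1.16 ± 0.312 CPM in HET (SD, n = 5 each; log2 fold change 1.19 ± 0.26 (SE), edgeR adjusted p = 0.0345), and Bmp6 with 4.25 ± 0.474 CPM in KO and 2.51 ± 0.416 CPM in HET (0.75 ± 0.13, edgeR adjusted p = 0.0217). Every KO library lay above every HET library for Bmp6, and for Bmper KO-738, at 1.22 CPM, lay among the HET libraries. Tgfbr2 had 34.9 ± 6.95 CPM in KO and 24.3 ± 1.21 CPM in HET (0.52 ± 0.10, edgeR adjusted p = 0.0257), and Tgfbr3 had 50.3 ± 5.58 CPM in KO and 39.3 ± 1.94 CPM in HET (0.36 ± 0.07, edgeR adjusted p = 0.0226). Id1 did not pass, with 9.05 ± 1.19 CPM in KO and 8.98 ± 0.602 CPM in HET (0.01 ± 0.14, edgeR adjusted p = 0.979). None of the 4 calls held without KO-696, HET-693, HET-715, HET-718 or HET-735, where at most 0.158% of all genes were called. In these fits the adjusted p-values were 0.0563 to 0.0935 for Bmper and 0.055 to 0.0725 for the other called members. Bmper also missed without KO-694, KO-695 or KO-739 (0.0544 to 0.0702). This comparison shares its KO libraries with KO against WT. Fibroblast markers summed to 1261 to 1510 CPM and endothelial markers to 133 to 175 CPM in HET, beside the KO sums given above.

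Other genes of the pathway were taken from a list of 81, of which 64 could be tested. In KO against WT, 12 rose and 52 did not pass, or 18.8% called, beside 6.00% of all genes called and 4.40% called higher. Without the filter on low counts, and in a fit of KO and WT alone, 8 were called, without Tll1, Fn1, Cilp and Comp, where 2.47% and 1.52% of all genes were called. Of the genes that TGF-beta is known to induce, 7 of 13 tested rose: Eln, elastin (0.86 ± 0.18), Loxl2 (0.86 ± 0.16) and Lox (0.69 ± 0.13), which cross-link collagen and elastin, Fn1, fibronectin (0.44 ± 0.12), the matrix proteins Tgfbi (0.50 ± 0.08) and Comp (1.36 ± 0.38), and Cilp (0.75 ± 0.19), with adjusted p-values of 0.00472 to 0.0446. These are also matrix genes of fibroblasts, whose markers rose in the same libraries. Tgfbi had 28.5 ± 3.56 CPM in KO and 20.2 ± 1.06 CPM in WT (SD, n = 5 each), and even KO-738, at 23.3 CPM, lay above the highest WT value of 20.8 CPM. Fn1 in KO-738, at 44.4 CPM, lay within the WT range of 41.8 to 55.1 CPM. With the animal number range in the fit, Tgfbi and Loxl2 passed, and Lox, Eln, Fn1, Cilp and Comp did not (edgeR adjusted p 0.0675 to 0.35). Without both KO-695 and KO-739, Loxl2 alone of the 7 passed, and the others had edgeR adjusted p-values of 0.0544 (Tgfbi) to 0.212 (Fn1). Tgfbi, Loxl2 and Lox passed in all 15 fits with a library left out, and Eln in all but the fit without KO-696 (adjusted p = 0.0581). Fn1 was lost in 9 of them (adjusted p 0.0506 to 0.0995, without KO-694, KO-695, KO-696, KO-739, HET-718, WT-709, WT-719, WT-723 or WT-726) and Cilp in 7 (0.0511 to 0.089, without KO-695, KO-696, KO-739, WT-709, WT-719, WT-723 or WT-726). Comp was lost in 11 (0.0569 to 0.118, without KO-694, KO-695, KO-696, HET-693, HET-718, HET-735 or any WT library), and its log2 fold change was 0.55 with the animal number range in the fit.

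Of the 13 genes of latent TGF-beta storage, activation and processing, 3 rose. Lrrc32, or GARP, which anchors latent TGF-beta on the cell surface, had 4.53 ± 0.196 CPM in KO and 3.0 ± 0.184 CPM in WT (0.59 ± 0.11, edgeR adjusted p = 0.0065; SD, n = 5 each), without overlap. Tll1, a protease of the same family as Bmp1, had 2.49 ± 0.367 CPM in KO and 1.73 ± 0.346 CPM in WT (0.53 ± 0.15, edgeR adjusted p = 0.0484), and Pcolce, which helps Bmp1 trim procollagen, had 27.3 ± 4.44 CPM in KO and 18.8 ± 2.18 CPM in WT (0.54 ± 0.12, edgeR adjusted p = 0.0176). The latent TGF-beta binding proteins Ltbp1, Ltbp2, Ltbp3 and Ltbp4 did not pass, with log2 fold changes of -0.08, -0.10, 0.08 and 0.21. Leaving out a library ended the Tll1 call in 13 of 15 fits, all but those without KO-738 or WT-719 (adjusted p 0.0529 to 0.101), and the Pcolce call without KO-695 or KO-696 (0.0533 to 0.0623). With the animal number range in the fit, Lrrc32, Pcolce and Tll1 did not pass (edgeR adjusted p 0.0504 to 0.14). They also missed without both KO-695 and KO-739 (0.0669 to 0.202).

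Htra1, a serine protease that can restrain TGF-beta family signals, had 53.4 ± 5.44 CPM in KO and 37.3 ± 2.49 CPM in WT (0.52 ± 0.07, edgeR adjusted p = 0.00341; SD, n = 5 each). Acvrl1, the endothelial type I receptor also called ALK1, rose (0.36 ± 0.08, adjusted p = 0.0181; lost without KO-695, KO-696 or WT-723 at 0.0542 to 0.0659), while its co-receptor Eng missed the threshold (0.32 ± 0.14, adjusted p = 0.169). The Acvrl1 call was also lost with the animal number range in the fit (edgeR adjusted p = 0.105) and without both KO-695 and KO-739 (0.129). Of the Smads that carry the signal, Smad1, Smad2, Smad3, Smad4 and Smad5 did not pass, with log2 fold changes of -0.01, 0.04, 0.06, 0.04 and 0.04. Smad9 had -0.24 (adjusted p = 0.28). Mstn, the muscle ligand myostatin, was not tested and had 29.0 CPM in KO-739 and at most 0.146 CPM in any other library, in the same library that held the skeletal muscle markers.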

How the data were processed

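RNA-seq reads of 15 whole epididymides were counted per NCBI Gene ID, and the deposited counts are raw. Per the submitters' processing notes, build GRCm38.p6 was used, and Subread 1.4.6p5 (its featureCounts program), HISAT2 2.0.5 and FastQC are listed; per the labels' protocols, libraries came from a stranded mRNA kit. The strand setting and annotation release are not given in the sources used here. Depth was 20304440 to 41957608 counted reads per library.

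Gene names came from the RefSeq table of GRCm38.p6 (40290 of 41591 IDs). The 19388 genes kept by filterByExpr were tested with edgeR 4.0.16 (TMM scaling, robust quasi-likelihood fit of all 15 libraries, 12 residual degrees of freedom, Benjamini-Hochberg adjustment, threshold 0.05) in R 4.3.3. Tables and figures were made with Python 3.11.15, pandas 2.3.3 and matplotlib 3.10.9. CPM used TMM sizes; RPKM divided CPM by the union exon length of GENCODE M21 basic genes. The biological coefficient of variation was 16.3%. Alternatives used DESeq2 1.42.0, limma 3.58.1 voom, other scalings, filters and sample sets; the fitting was tested on simulated counts.

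Named genes were every member called in any comparison and the 4 members with the next smallest p in KO against WT, with values per library; the others by level, fold change and range; called genes of the wider pathway list, at most 12; and Acvrl1, Eng, the Ltbp and the receptor Smad genes whatever their result. Nog, Mstn and the HET values were added after their values were seen. The members and lists were chosen with earlier results of these data known.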

Additional observations from a re-analysis of the deposited data

Results flagged for a closer look

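Of 126 member and genotype groups, 10 had a library farther from the rest than Dixon's limit of 0.71 for 5 values allows, and chance alone flags about 1 group in 20. In KO, Fstl1 had 120.6 CPM in KO-739, while the other KO libraries had 77.7 to 89.6 CPM. Bmp8a, a ligand with a close copy in the genome, had 0.896 CPM in KO-739, against 2.04 to 2.45 CPM in the others. Fstl3 had 4.95 CPM in KO-695, against 0.627 to 1.86 CPM in the others. KO-739 also held the highest sum of skeletal muscle markers and KO-695 the highest of fat cell markers, at 4183 and 198 CPM.

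In HET, library HET-692 stood apart in 4 members. Bmp8a had 3.15 CPM there, against 1.80 to 2.15 CPM in the other HET libraries, and Smad6 had 3.68 CPM, against 2.11 to 2.54 CPM. Tgfbr1 had 126.6 CPM there, against 147.9 to 153.7 CPM, and Acvr2b had 14.1 CPM, against 16.7 to 17.4 CPM. Bmp2 had 0.910 CPM in HET-718, against 1.30 to 1.45 CPM in the other HET libraries, and Bmp7 had 10.1 CPM in HET-693, against 12.6 to 13.4 CPM. In WT, Fst had 5.64 CPM in WT-720, against 7.54 to 7.76 CPM in the other WT libraries.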

How the results depend on the processing

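No member or wider pathway gene reversed its called direction under any alternative. With RLE or upper quartile scaling, and with either filter on low counts, the member counts were 9 in KO against WT and 4 in KO against HET. In KO against WT these fits called 2.47% (without a filter) to 6.56% (upper quartile scaling) of all genes. In KO against HET they called 0.955% (without a filter) to 2.52% (at least 1 CPM in 5 libraries). Without a filter the wider pathway calls were 8 in place of 12, without Tll1, Fn1, Cilp and Comp (adjusted p 0.0601 to 0.0806). DESeq2 and limma voom called 11 and 12 members in KO against WT and 7 each in KO against HET, where they called 9.95% and 8.73% of all genes in KO against WT and 6.41% and 10.1% in KO against HET. A fit of only the 2 genotypes compared called 3 (Bmper, Tgfbr2 and Tgfbr3) in KO against WT and 0 in KO against HET, where edgeR gave 13 an unadjusted p below 0.05, and the same 8 wider pathway genes; it called 1.52% and 0% of all genes. With the animal number range as a term the members called in KO against WT were 2 and the wider pathway genes 3, beside 0.913% of all genes; among animals numbered 700 and above the edgeR counts were 0 and 0, and 0 in KO against HET, as over all genes (12, 19 and 7 at an unadjusted p below 0.05). Without HET-693 and KO-738, 14 and 7 members were called in KO against WT and KO against HET, beside 14% and 8.52% of all genes. Without KO-695 and KO-739, a choice made after the data were seen, these were 1 and 0 (9 at an unadjusted p below 0.05 in KO against HET), with 2 wider pathway genes, beside 0.717% and 0.0152% of all genes. Leaving out 1 library at a time gave 2 (without KO-696) to 15 (without KO-738) members in KO against WT. It gave 5 to 17 wider pathway genes in the same 2 fits, beside 1.63% and 15% of all genes. In KO against HET it gave 0 (11 at an unadjusted p below 0.05) to 11 members. The count of 11 calls came without KO-738, where 12.5% of all genes were called. In HET against WT it gave 0 members (5 to 13 at an unadjusted p below 0.05), beside 0% of all genes. The shares of all genes at an unadjusted p below 0.05 were not taken for these alternative fits, so the member counts at that p have no background beside them. In the main edgeR fit these shares were 23.6% in KO against WT, 20.8% in KO against HET and 4.4% in HET against WT. The cause of the shifts in calls was not tested. No paired analysis was possible because no animal number is shared between genotypes. Depth limits Bmp8b, Nog and Grem1, which were not tested.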
